A study of Rattus norvegicus with 32 samples.

Results

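Peroxisome proliferator-activated receptors (PPARs) are nuclear receptors that are switched on by fatty acids and their derivatives, and they bind DNA as pairs with a retinoid X receptor. Ppara encodes PPARα, the receptor that drives peroxisomal and mitochondrial fatty acid oxidation and the target of the drug fenofibrate. Pparg encodes PPARγ, best known for adipocyte differentiation, Rxra encodes the partner receptor RXRα, and Ppargc1a encodes PGC-1α, a coactivator of PPARα and a driver of mitochondrial biogenesis. The proximal tubule of the renal cortex depends on fatty acid oxidation for its energy.

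The abundance of these 4 transcripts was examined in rat renal cortex among 26404 genes with deposited counts. They were picked by Ensembl gene identifier, each checked against the chromosome given in the count files, and all 4 matched. Sprague Dawley rats (SD, n = 6) served as healthy controls. The other 3 groups were rats of the Zucker Diabetic Sprague Dawley (ZDSD) strain, which becomes obese and diabetic: a sham laparotomy group (SHAM, 9 rats), a Roux-en-Y gastric bypass group (RYGB, n = 9), and a group given the bypass together with fenofibrate, metformin, ramipril and rosuvastatin (RYGB-FMRR, n = 7). The study used male rats, and the 4 medications were mixed into chow and given together, so that no single drug can be told apart from the other 3. Insulin degludec was given for a week before surgery in the 3 ZDSD groups. The labels give an age of 37 weeks for all rats. The study's methods, however, place surgery at a different age in each of the 3 ZDSD groups, youngest in SHAM, with the same follow-up. Age and treatment therefore cannot be told apart in comparisons that involve these groups. SD and ZDSD rats differ in strain as well as in disease, and the study describes surgery and insulin for ZDSD rats only. In comparisons with SD, strain, disease, surgery and insulin cannot be told apart either. A further rat labelled as RYGB-FMRR was not analysed here.

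Total counts ran from 14502127 to 27597901 in 29 libraries. SHAM rats 343 and 348 held only 121511 and 101534 counts and were left out, which leaves 7 SHAM rats. No 2 libraries were identical. The files pair no identifiers with symbols, so that the tissue label could not be checked against renal cell markers, and no other gene of the fatty acid oxidation pathway is named here.

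By the rn5 annotation, Ppara (ENSRNOG00000021463) lies on chromosome 7 from 126330833 to 126392748 and has 8 exons with 2021 exonic bases. Pparg (ENSRNOG00000008839) lies on chromosome 4 from 210564193 to 210688582, with 9 exons after overlapping entries were merged and 1912 bases. Rxra (ENSRNOG00000009446) lies on chromosome 3 from 11570610 to 11654513, with 10 exons and 1985 bases, and Ppargc1a (ENSRNOG00000004473) on chromosome 14 from 63195104 to 63286096, with 13 exons and 2440 bases. All 4 are on the plus strand, and no other annotated gene overlaps any of them on either strand, so their read pairs are not shared with a neighbour.

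The DNA just before their start sites differed in composition. RefSeq lists starts for all 4 genes on the newer build GRCr8, 5 starts in all because Pparg has 2. These positions are not comparable with the rn5 positions above, and which start is used in renal cortex was not measured. The 250 bases before the listed start are shown for Ppara and Ppargc1a, the 2 transcripts that were higher in ZDSD rats, and for Rxra, for which no comparison passed the test. All 3 are on the plus strand, from chr7:118712357-118712606, chr3:31387642-31387891 and chr14:63634058-63634307. Capitals mark matches to 6 short motifs searched on both strands.

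Ppara: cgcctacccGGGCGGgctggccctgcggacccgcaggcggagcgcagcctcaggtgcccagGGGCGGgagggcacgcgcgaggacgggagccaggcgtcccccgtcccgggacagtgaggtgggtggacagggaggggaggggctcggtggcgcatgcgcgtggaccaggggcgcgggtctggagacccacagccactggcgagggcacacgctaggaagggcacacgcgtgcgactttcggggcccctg

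Rxra: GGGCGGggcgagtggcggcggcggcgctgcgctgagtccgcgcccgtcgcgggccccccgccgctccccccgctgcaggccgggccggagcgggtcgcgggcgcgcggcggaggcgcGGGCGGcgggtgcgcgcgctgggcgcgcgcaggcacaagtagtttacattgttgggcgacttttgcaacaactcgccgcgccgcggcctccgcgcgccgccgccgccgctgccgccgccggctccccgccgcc

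Ppargc1a: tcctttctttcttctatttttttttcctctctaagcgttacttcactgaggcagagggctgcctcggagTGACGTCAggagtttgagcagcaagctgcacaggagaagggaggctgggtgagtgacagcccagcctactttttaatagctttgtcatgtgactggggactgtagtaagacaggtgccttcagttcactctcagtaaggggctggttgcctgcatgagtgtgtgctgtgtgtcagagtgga

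The Ppara and Rxra sequences were 76.0% and 82.8% G and C, higher than 97.14% and 99.52% of the 33469 rat promoters in the table. That of Ppargc1a was 50.4% G and C, close to the median of 51.2%. The capitals in Ppara and Rxra are 2 matches each to the GC box GGGCGG, which 30.467% of all promoters hold. The capitals in Ppargc1a are the cAMP response element TGACGTCA, which reads the same on both strands, starts 181 bases before the listed start and is found in 1.587% of promoters. The first Pparg start, at 67.2% G and C, had 3 matches to the GC box on the opposite strand, 2 of which overlap. The second, at 44.8%, had no match to any motif. No match was found at the 5 starts to the nuclear receptor half-site AGGTCA (14.064% of promoters), to that half-site repeated after 1 base, AGGTCANAGGTCA (0.051%, and a repeat of the motif before), to the E-box CACGTG (5.593%) or to the TATA box TATAAA (12.931%). The RefSeq record of Ppargc1a spans 655711 bases against 90993 in rn5, so its listed start may be 1 of several.

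Pparg was scarce and the other 3 transcripts were abundant. Levels are compared between genes as FPKM, read pair counts per kilobase of exon and per 1000000 of the TMM-normalized library size. Over 29 rats the mean was 46.4 FPKM ± 4.80 (SD) for Rxra, 41.9 ± 6.23 for Ppargc1a, 26.5 ± 5.42 for Ppara and 1.17 ± 0.45 for Pparg. Of the 14776 genes that passed the filter on low counts, 84.5% lay below Rxra, 82.7% below Ppargc1a, 72.9% below Ppara and 13.7% below Pparg. The mean FPKM of Ppara was 22.7 times that of Pparg, and that of Rxra 39.7 times. All 4 genes passed the filter. Over rats, Rxra ranged from 36.5 to 53.5 FPKM and Ppargc1a from 29.1 to 53.9, and the range of Ppara (17.9 to 39.6) overlapped both. Within each of the 29 rats, however, Ppara lay below both, while the order of Rxra and Ppargc1a changed between rats. The highest Pparg value, 2.24 FPKM, was far below the lowest value of any of the other 3.

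**Figure D1:**
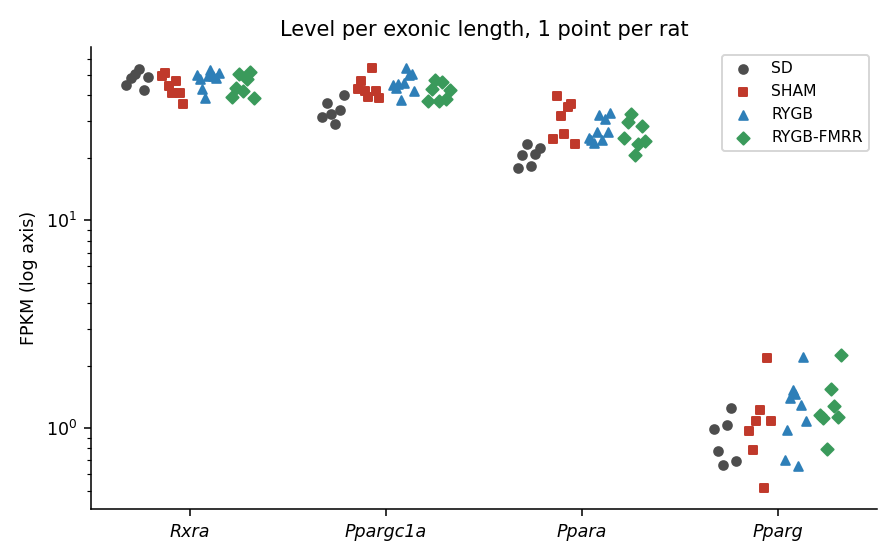
FPKM of each gene in each of 29 rats on a log axis, with groups side by side (SD, SHAM, RYGB, RYGB-FMRR). Rxra, Ppargc1a and Ppara lay between 17.9 and 53.9 FPKM and Pparg between 0.51 and 2.24.

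The transcripts also differed in how much they varied between rats. The biological coefficient of variation, edgeR's estimate of the spread between rats of one group beyond counting error, was 10.5% for Rxra, 10.9% for Ppargc1a, 14.7% for Ppara and 32.2% for Pparg. Among the 500 tested genes of most similar abundance, 90.4% varied less than Ppara and 86.6% less than Pparg, against 70.6% for Rxra and 70.8% for Ppargc1a.

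Differences between groups were tested in one model of the 4 groups by edgeR's quasi-likelihood test with Benjamini-Hochberg adjustment over 14776 genes. A gene was called differentially expressed where its fold change reached 1.3 in either direction with an adjusted p-value below 0.05. The p-values weigh each difference between groups against the spread between these rats and counting error. In bulk tissue, a change in RNA per cell and a change in the share of cells that express a gene cannot be told apart. In SHAM compared with SD, 1 of the 4 genes was differentially expressed, against 18.6% of all genes tested. In RYGB compared with SD, 2 of 4 were, against 19.5% of all genes, and in RYGB-FMRR compared with SD 0 of 4 were, against 16.7%. With the adjusted p-value alone, 2 of 4 passed in each of these 3 comparisons, by edgeR and by the DESeq2 Wald test, where 35.2%, 40.6% and 30.7% of all genes passed by edgeR. The 2 were Ppara and Ppargc1a each time, and because the 3 comparisons use the same SD rats they are not independent of each other. Between ZDSD groups, 0 of 4 were differentially expressed by either tool, and 0 of 4 passed the adjusted p-value alone. Of all genes tested, 5.35% were differentially expressed by edgeR between RYGB and SHAM, 12.1% between RYGB-FMRR and SHAM and 4.56% between RYGB-FMRR and RYGB, and 12.9%, 21.9% and 11.5% passed the adjusted p-value alone. At an unadjusted p-value under 0.05 by either tool, 1 of 4, Ppara, passed between RYGB-FMRR and SHAM, and 0 passed in the other two. By edgeR, 34.2% of all genes passed this unadjusted threshold between RYGB-FMRR and SHAM, 28.4% between RYGB and SHAM and 26.3% between RYGB-FMRR and RYGB.

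**Figure D2:**
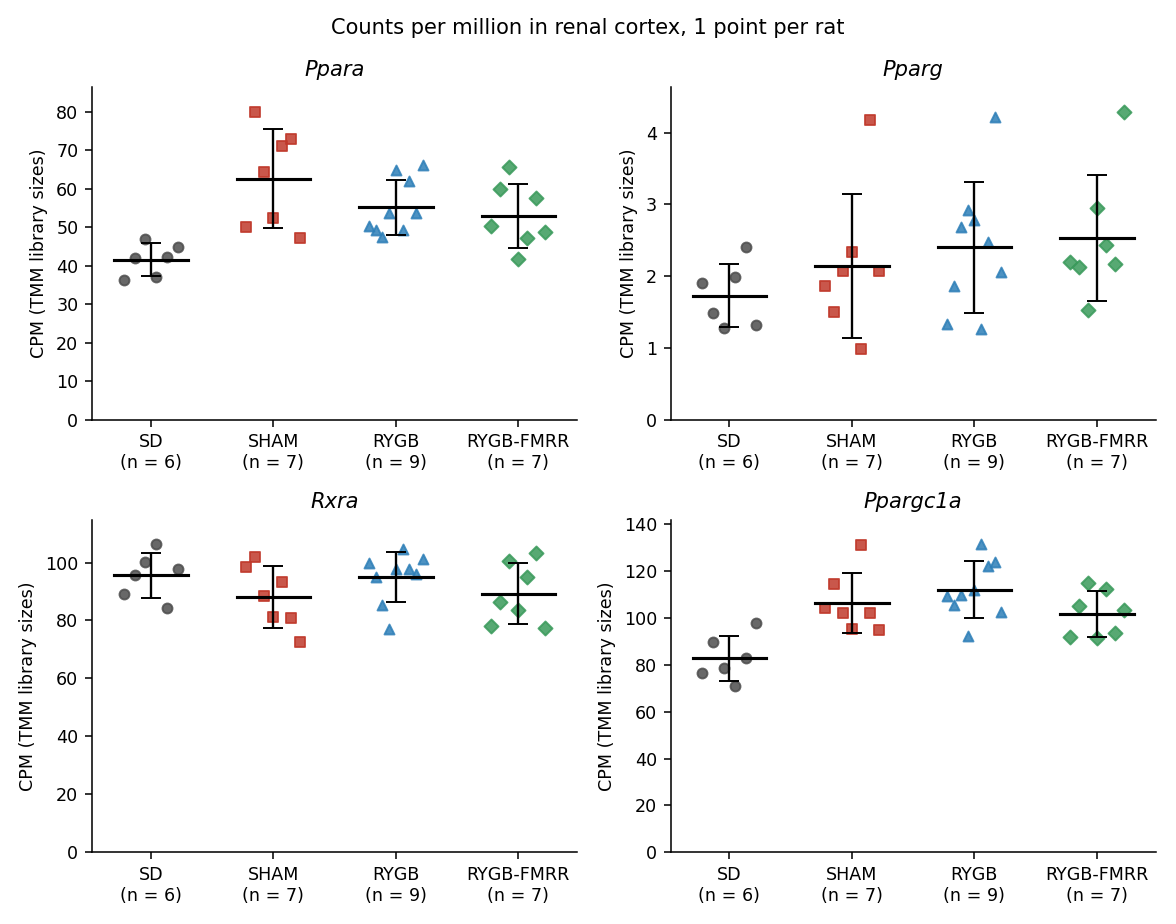
CPM of each gene in each rat by group, with 1 panel per gene and axes from 0. Horizontal lines are group means and error bars are the SD. All SHAM and RYGB rats lay above every SD rat for Ppara, and Rxra and Pparg values overlapped between all groups.

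Ppara was higher in SHAM than in SD in every rat. Values for one gene are given as CPM, read pair counts per 1000000 of the TMM-normalized library size. The lowest SD rat had 36.2 CPM, the median was 42.1 and the highest had 47.0, against 47.1, 64.3 and 80.0 CPM in SHAM. The groups did not overlap, although the lowest SHAM rat, 340, exceeded the highest SD rat, 354, by little. Non-overlap in either direction was seen for 8.63% of all genes tested in this comparison. The fold change was 1.504 (log2 0.59, standard error 0.12, 95% confidence interval 0.35 to 0.83, adjusted p = 0.000396 from edgeR). With the 2 shallow SHAM libraries included it was 1.49 (adjusted p = 0.000344 from edgeR). SHAM rats fell into 3 with 47.1 to 52.3 CPM and 4 with 64.3 to 80.0 CPM, and their coefficient of variation was 20.5% against 10.2% in SD.

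In RYGB rats Ppara ranged from 47.6 to 66.1 CPM, with a median of 53.6. All 9 lay above the highest SD rat, and non-overlap was seen for 10.1% of all genes tested. The fold change from SD was 1.33 (log2 0.41, standard error 0.11, adjusted p = 0.00528 from edgeR). The call rested on the fold threshold: without SD rat 352, SD rat 355, RYGB rat 337 or RYGB rat 350 the log2 fold change was 0.37 to 0.38, just under the threshold, and it was 0.36 with 2 surrogate variables as covariates (adjusted p = 0.017). In RYGB-FMRR rats the lowest value was 41.9, the median 50.4 and the highest 65.6 CPM, and 6 of 7 rats exceeded the highest SD rat. The exception was rat 324. The fold change from SD was 1.28 (log2 0.35, standard error 0.12, adjusted p = 0.0244 from edgeR), past the adjusted p-value but not the fold threshold. Without rat 324 it was 1.32 (adjusted p = 0.0118), and without SD rat 354 it was 1.31 (adjusted p = 0.022), so that either omission would make Ppara differentially expressed. Without SD rat 352, SD rat 355, RYGB-FMRR rat 312 or RYGB-FMRR rat 323 the adjusted p-value exceeded 0.05, at most 0.0666 from edgeR.

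The mean of Ppara was highest in SHAM, followed by RYGB, RYGB-FMRR and SD. Among the ZDSD groups no step of this order passed the test. Ppara was 0.88-fold in RYGB relative to SHAM (95% confidence interval 0.76 to 1.03, adjusted p = 0.27 from edgeR). It was 0.85-fold in RYGB-FMRR relative to SHAM (interval 0.722 to 0.995, unadjusted p = 0.0438, adjusted p = 0.134 from edgeR), with 6 of 7 RYGB-FMRR rats below the SHAM median. This adjusted p-value ranged from 0.0178 with library totals alone to 0.224 over 8 alternatives, and was 0.0495 without SHAM rat 340, at a fold under the threshold. RYGB-FMRR differed from RYGB by 4 drugs given together, a PPARα agonist among them, so that the agonist alone was not tested. In this contrast Ppara itself was 0.96-fold (interval 0.83 to 1.12, adjusted p = 0.776 from edgeR). The transcript of fenofibrate's receptor was not detectably different, and the interval leaves room for a decrease or an increase of the size given.

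Ppargc1a, the coactivator, was also higher in the 3 ZDSD groups than in SD. Its CPM ran from 70.9 to 97.9 in SD (median 80.9), from 94.9 to 131 in SHAM (median 102), from 92.2 to 131 in RYGB (median 110) and from 91.5 to 115 in RYGB-FMRR (median 103). All ZDSD rats exceeded the SD median. Of the SD rats only rat 357, at 97.9 CPM, reached into the ZDSD range, where it overlapped 2 SHAM rats, 1 RYGB rat and 3 RYGB-FMRR rats.

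Relative to SD, Ppargc1a was 1.36-fold in RYGB (log2 0.44, standard error 0.08, adjusted p = 0.000117 from edgeR) and was differentially expressed. It was 1.29-fold in SHAM (log2 0.36, standard error 0.09, adjusted p = 0.00172 from edgeR) and 1.23-fold in RYGB-FMRR (log2 0.30, standard error 0.09, adjusted p = 0.00838 from edgeR), both past the adjusted p-value but under the fold threshold. With the 2 shallow libraries the SHAM value was 1.295-fold (adjusted p = 0.00128 from edgeR) and still under the threshold. Without SD rat 353, SD rat 357, SHAM rat 321 or SHAM rat 340 it was 1.31 to 1.33, which would make it differentially expressed. With 2 surrogate variables the SHAM log2 fold change was 0.23 (adjusted p = 0.0146) and that of RYGB was 0.33 (adjusted p = 0.000156), the latter no longer past the fold threshold.

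Between ZDSD groups Ppargc1a was 1.05-fold in RYGB relative to SHAM (interval 0.95 to 1.18, adjusted p = 0.557 from edgeR), 0.96-fold in RYGB-FMRR relative to SHAM (0.85 to 1.07, adjusted p = 0.622) and 0.91-fold in RYGB-FMRR relative to RYGB (0.81 to 1.01, adjusted p = 0.249). The order of group means was RYGB, SHAM, RYGB-FMRR and SD, of which only the last step passed the adjusted p-value.

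Ppargc1a varied with library properties within groups. TMM normalization factors were 0.914 to 1.011 in SD and 1.012 to 1.123 in SHAM, without overlap, and 0.980 to 1.060 in RYGB and 0.931 to 1.004 in RYGB-FMRR. Within groups, the log2 CPM of Ppargc1a correlated with the log2 factor (r = 0.52 over 29 rats after subtraction of group means, permutation p = 0.00786, adjusted p = 0.0367) and inversely with the log2 total count (r = -0.54, permutation p = 0.00464, adjusted p = 0.0365). By ranks these were 0.40 and -0.45 (permutation adjusted p = 0.151 and 0.15). Without the 2 rats farthest from the median of Ppargc1a, rats 333 and 357, r was 0.50 and -0.39. CPM is itself computed from the total count and the factor, so these relations share terms. The share of all genes with such correlations was not computed, so they may not be particular to Ppargc1a. The part of library composition and depth in the difference from SD was not tested. With library totals alone and no factors, Ppargc1a was 1.40-fold in SHAM and 1.44-fold in RYGB relative to SD.

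**Figure D3:**
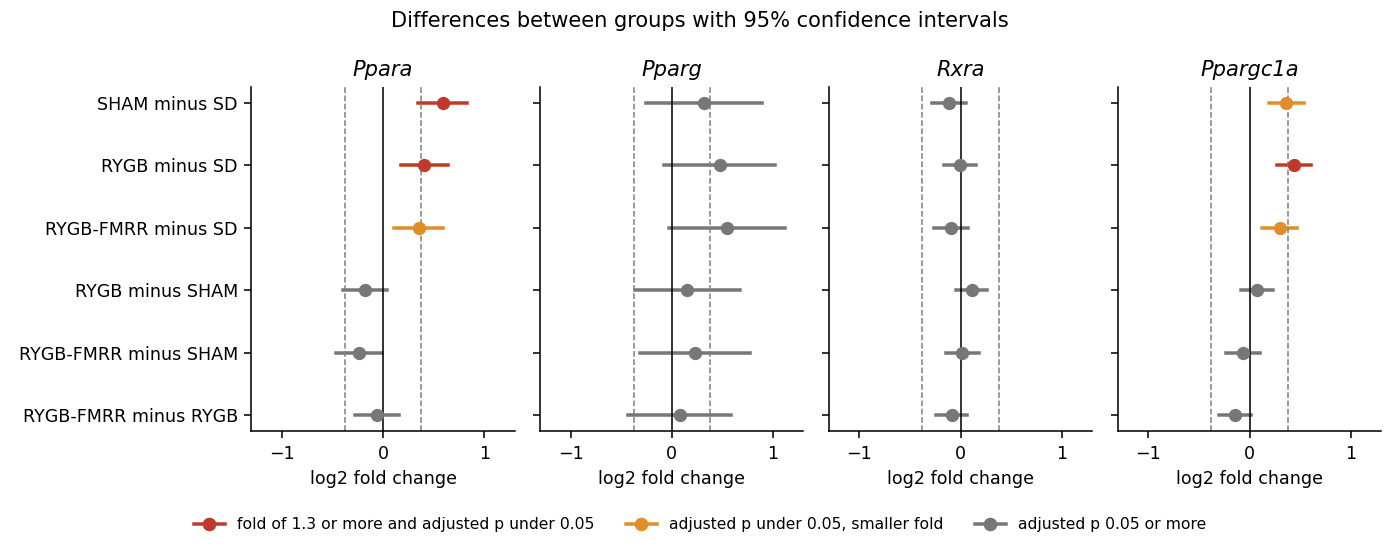
Log2 fold change of each gene in 6 comparisons (points) with 95% confidence intervals (lines), with dashed lines at a fold of 1.3 either way. Ppara and Ppargc1a lay above 0 in the 3 comparisons with SD, and all intervals of Rxra lay inside the dashed lines.

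Rxra, the common partner, differed little between groups on average. It was measured from 84.4 to 106 CPM in SD (median 96.7), from 72.4 to 102 in SHAM (median 88.3), from 77.0 to 105 in RYGB (median 97.8) and from 77.3 to 103 in RYGB-FMRR (median 86.4). All groups overlapped. The log2 fold change was at most 0.12 in size in any of the 6 comparisons, and the smallest adjusted p-value was 0.27 from edgeR, in SHAM compared with SD (0.92-fold, 95% confidence interval 0.82 to 1.04). All 6 intervals lay inside a fold of 1.3 in either direction, the widest reach being a log2 value of -0.28 in SHAM compared with SD. Differences beyond a fold of 1.3 were therefore outside these intervals, and smaller ones were not. The SHAM difference from SD, a log2 value of -0.12, was -0.20 with 2 surrogate variables (adjusted p = 0.08 from edgeR), and its sign turned with library totals alone (log2 0.01, adjusted p = 0.936 from edgeR).

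Pparg, the least abundant and most variable of the 4, passed the test in no comparison. Counts per rat ran from 16 to 93, and CPM from 1.28 to 2.40 in SD (median 1.69), 0.98 to 4.17 in SHAM (median 2.07), 1.26 to 4.22 in RYGB (median 2.48) and 1.53 to 4.29 in RYGB-FMRR (median 2.20). All groups overlapped, and in each ZDSD group 1 rat stood above 4 CPM, namely rats 334, 346 and 339. Relative to SD, Pparg was 1.25-fold in SHAM (interval 0.84 to 1.86, adjusted p = 0.393 from edgeR), 1.39-fold in RYGB (0.95 to 2.03, adjusted p = 0.162) and 1.46-fold in RYGB-FMRR (0.98 to 2.17, adjusted p = 0.14). Single rats moved these values: the log2 difference of SHAM from SD was 0.32, but 0.07 without SHAM rat 334 and 0.44 without SHAM rat 333. The log2 difference from SHAM was 0.15 in RYGB and 0.23 in RYGB-FMRR, and without rat 334 it was 0.40 and 0.48 (adjusted p = 0.295 and 0.179 from edgeR). It was 0.02 in RYGB without rat 346 and 0.06 in RYGB-FMRR without rat 339. The intervals from SD include both no difference and a fold past the threshold. With 2 surrogate variables Pparg was 1.61-fold in RYGB relative to SD and passed both thresholds (adjusted p = 0.0476 from edgeR).

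**Figure D4:**
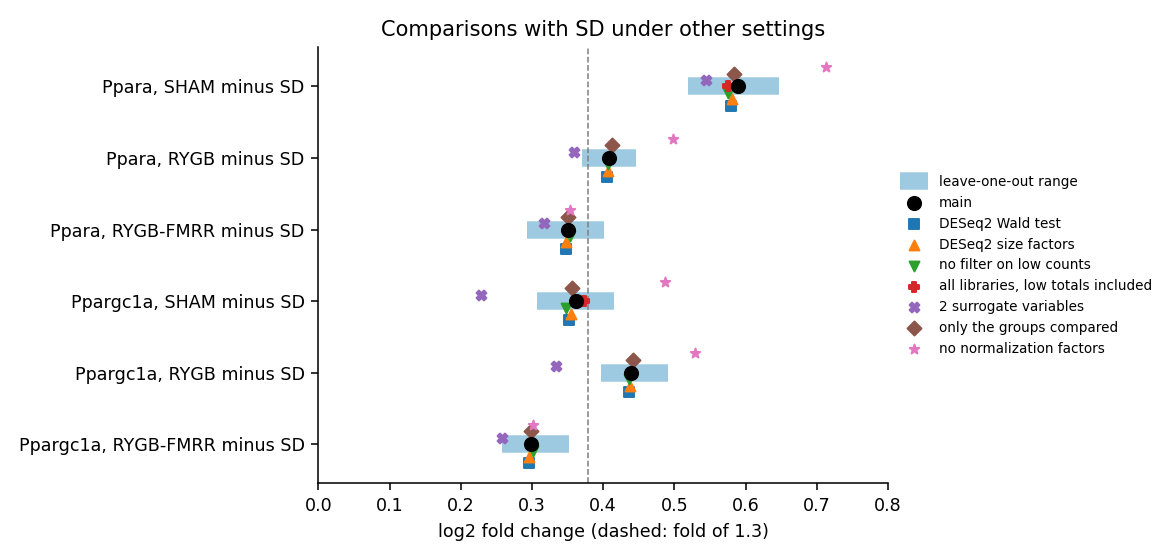
Log2 fold changes of Ppara and Ppargc1a relative to SD in the main model (black points), with each rat left out in turn (bars) and under 7 other settings (symbols). The dashed line is a fold of 1.3, and Ppara in SHAM stayed to the right of it throughout, while each of the other 5 differences lay to the left of it under 1 setting or more.

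Rat-to-rat variation was then compared between the genes within groups, as correlations of log2 CPM after subtraction of group means over 29 rats. These relations were chosen after seeing the data, and 14 were computed in all, 6 between genes and 8 with total count and normalization factor. Of the 6 between genes, Pparg and Rxra were inversely related (r = -0.54, permutation p = 0.00521, adjusted p = 0.0365, Spearman rho = -0.58, permutation p = 0.00178, adjusted p = 0.0249). The sign was negative in each group, at r = -0.52 among SD rats, -0.54 among SHAM, -0.48 among RYGB and -0.66 among RYGB-FMRR rats. Without rats 334 and 333, which lay farthest from the median of Pparg, r was -0.54. Among all tested genes, 1.66% correlated with Pparg and 5.79% with Rxra at least this strongly. The Pparg counts are low, and SHAM rat 334 and RYGB rat 346 combined high Pparg with Rxra on either side of the group mean.

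No other pair passed the adjusted threshold. Ppara and Ppargc1a had r = 0.38 (permutation p = 0.0543, adjusted p = 0.109, rho = 0.40, permutation p = 0.0447, adjusted p = 0.151) and r = 0.31 without rats 315 and 340. Within groups it was 0.60 among SD rats, 0.65 among SHAM, -0.10 among RYGB and 0.44 among RYGB-FMRR rats. A correlation of at least 0.38 in size was seen with Ppara for 13.0% of all tested genes and with Ppargc1a for 36.3%. Rxra correlated with Ppargc1a at r = 0.44 (permutation adjusted p = 0.0779) and with Ppara at 0.40 (permutation adjusted p = 0.109), Pparg with Ppargc1a at -0.39 (permutation adjusted p = 0.109) and Pparg with Ppara at -0.18 (permutation adjusted p = 0.452). SHAM rat 340 was the lowest of its group for Ppara, Rxra and Ppargc1a.

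**Figure D5:**
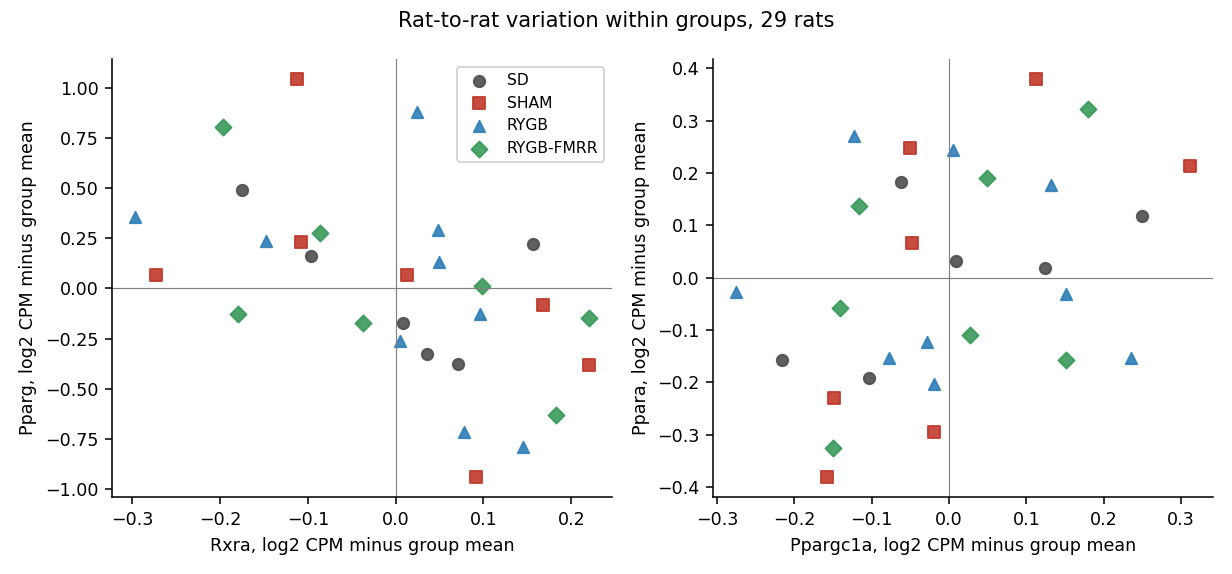
Log2 CPM minus the group mean in 29 rats, for Pparg against Rxra (left) and Ppara against Ppargc1a (right), with a symbol per group. The left cloud falls from left to right (r = -0.54), and the right cloud has r = 0.38.

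The genes whose log2 CPM over the 29 rats was most like that of each of the 4 were found by Pearson correlation, as a description with differences between groups left in. Ppargc1a had many such genes, with 596 at r of 0.7 or more, Ppara had 81, Rxra 6 and Pparg 2. The closest to Ppargc1a was ENSRNOG00000019688 on chromosome 18 (r = 0.92, 0.83 after subtraction of group means), and the closest to Ppara was ENSRNOG00000033389 on chromosome 20 (r = 0.88, and 0.79). All points share libraries and normalization factors. Of the 5 genes closest to each, 3 were also among the closest 5 by Spearman correlation, for all 4 genes. After subtraction of group means, 2 of 5 remained for Ppara and for Ppargc1a, 3 of 5 for Pparg and 1 of 5 for Rxra.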

How the data were processed

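Renal cortex was sequenced as stranded total RNA in paired-end libraries. Per the submitters' processing notes and the study's methods, the authors trimmed reads with Trim Galore, aligned them to rn5 with STAR and counted pairs on exons with featureCounts, with strand, and deposited raw counts per Ensembl gene without normalization. The 4 genes and the lists for other genes were chosen with earlier results of these data known. None of 226 symbols on those lists, which held pathway genes and renal cell markers, could be matched to an identifier, since the reference table pairs 0 of its 47357 genes with Ensembl identifiers, and the rule for naming genes was applied to the 4 genes alone, and to the closest gene by identifier for 2 of them.

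Libraries under 1000000 counts were left out. Counts of 29 rats were filtered (edgeR 4.0.16 filterByExpr, minimum count 10), TMM-normalized and fitted with the 4 groups in one quasi-likelihood model. In simulated counts with changes in SHAM relative to SD, it called 76 of 108 changed genes at a log2 size of 0.6. At a log2 size of 1 it called 74 of 88, and 3 unchanged genes were called, so that some true changes were missed. Log2 CPM used a prior count of 2. Where the study used the DESeq2 Wald test, it was run as an alternative (DESeq2 1.42.0), as were its size factors, no filter, the adjusted p-value alone, all libraries, 2 surrogate variables (sva 3.50.0), only the groups compared, TPM, and omission of each rat. Permutation p-values for correlations were two-sided, with 100000 permutations within groups, and adjusted over 14 relations. Motifs were searched in RefSeq promoters (GRCr8). Precision is set by the number of rats and their spread, and for Pparg, with 16 to 93 counts per rat, also by counting error.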

Additional observations from a re-analysis of the deposited data

Results flagged for a closer look

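The library of SHAM rat 343, which was left out for its low total, held 20 counts of Ppargc1a among 121511. This is 164.594 CPM of the total, with an exact Poisson 95% interval of 101 to 254, which covers counting error only and lies above the highest SD rat at 91.9 CPM of the total. The 7 SHAM rats with full libraries ranged from 96.2 to 148 CPM on the same scale. The other shallow library, SHAM rat 348, held 10 counts, or 98.5 CPM (47.2 to 181), an interval that includes the SD range. For Ppara these libraries held 6 and 4 counts and for Rxra 11 and 12, and their intervals also included the SD values. Both held 0 counts of Pparg, where 3 counts would be 24.7 and 29.5 CPM and the exact Poisson intervals reach 30.4 and 36.3 CPM. All of these limits are above the level in any other rat, so that Pparg was not measurable at this depth.

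In the 16 sets of values given by 4 genes in 4 groups, 0 rats stood apart from the rest of their group by the size of the gap to the next rat, where chance gives about 1 in 20.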

How the results depend on the processing

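No paired analysis was possible because every group is made of other animals, with no number in common. Over 8 alternatives, 185 of 192 differences between groups kept their call, as did 686 of 696 with 1 rat left out. With the adjusted p-value alone, Ppargc1a in SHAM (log2 0.36) and Ppara (0.35) and Ppargc1a (0.30) in RYGB-FMRR would be called relative to SD, since their folds are under 1.3. With 2 surrogate variables, Ppara (0.36) and Ppargc1a (0.33) in RYGB relative to SD were no longer called and Pparg (0.68) was. The cause was not tested. Library totals alone, chosen after seeing the data, shifted the median log2 fold change of all genes by 0.12 in SHAM relative to SD and by -0.12 in RYGB-FMRR relative to SHAM, and Ppargc1a in SHAM was then called (0.49), or 0.36 relative to that shift. When library totals alone were used, correlations rose to 0.45 for Ppara with Ppargc1a and 0.57 for Rxra with Ppargc1a (permutation adjusted p = 0.0478 and 0.0143). Correlations with the log2 normalization factor were then 0.69 for Ppargc1a and 0.43 for Rxra (permutation adjusted p = 0.0049 and 0.0478). Those for Ppara (0.20) and Pparg (-0.18) did not pass. The factor estimates the shift that most genes share in values scaled by totals alone. A gene that follows most genes therefore correlates with it partly by construction. The share of all genes with such correlations was not computed. The part of library composition in the correlations between genes was not tested.

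With 1 rat left out, the log2 fold change from SD ranged from 0.52 to 0.65 for Ppara in SHAM, 0.37 to 0.45 in RYGB, and 0.29 to 0.40 in RYGB-FMRR. The adjusted p-value of the last ranged from 0.0118 to 0.0666 and exceeded 0.05 with 4 of the 29 omissions. For Ppargc1a the ranges were 0.31 to 0.42, 0.40 to 0.49 and 0.26 to 0.35 in the same order. Counts of all genes past the thresholds moved by over 1.5 times only with the adjusted p-value alone, to 5207, 1903, 3242, 1699, 6002 and 4537. TPM in place of FPKM moved the share of tested genes below each of the 4 by less than the spread of that share between rats, although TPM values themselves are on another scale.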
